A study of Mus musculus with 24 samples.

Results

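Chromatin accessibility was described at 35 genes of glycolysis, glycogen metabolism and lactate handling in mouse hindlimb muscle. The genes were chosen by name, and the locus of each was its RefSeq gene body plus 10 kb on either side on the mm10 build. Peaks of all 24 libraries were joined into regions, and those with a call in 2 or more libraries were used. Of 459616 kept regions, 569 overlapped the 35 loci, with 3 (Pgk1) to 53 (Hk1) regions per gene and no region shared between members. The 35 were set among 34614 gene loci, of which 29746 held 3 or more regions and were tested. Of the members, 32 are autosomal, with 543 regions, and Pgk1, Phka1 and Pfkfb1 are on the X chromosome.

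Glycolysis breaks glucose down to pyruvate, and lactate dehydrogenase turns pyruvate into lactate that monocarboxylate transporters carry across the membrane. Skeletal muscle also stores glucose as glycogen, built by glycogen synthase and branching enzyme and broken down by glycogen phosphorylase, which phosphorylase kinase activates. Fast fibres are known for a high glycolytic capacity and slow fibres for oxidative metabolism, and the enzymes of both pathways include isoforms that are mainly expressed in muscle.

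The assay was ATAC-seq, where Tn5 transposase cuts and tags accessible DNA. Libraries came from the soleus and vastus intermedius, which the study named slow-biased, and the gastrocnemius and vastus lateralis, named fast-biased, of male mice of the inbred strain FVB/NJ. For every muscle there were 3 adult mice (P56 in the series design, 3 to 4 months in the protocol) and 3 litters of embryos late in gestation (E18.5), where a replicate pooled the muscles of up to 5 male embryos of a litter. Nuclei were isolated from whole tissue, so all cell types of a muscle contributed, and a change in the share of muscle nuclei cannot be told apart from a change within them.

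Each library was a list of called peaks with no score, so a value is the number of regions called, not an amount of accessibility. The lists held 115333 to 228137 peaks, with a mean of 153684 in adult slow-biased, 179502 in adult fast-biased, 166792 in E18.5 slow-biased and 168920 in E18.5 fast-biased libraries. The 4 libraries of adult 1 stood apart from the others: they called 228 to 372 regions on the Y chromosome, against 972 to 2477 in the other 20. The numbers of member loci and member regions that passed are therefore given with and without adult 1. The promoter tests were not repeated without it, and loci of other gene lists are given with all animals only. Dates in the file names also differed between the adults and the litters, so date and stage cannot be told apart.

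Promoters of these genes mostly carried a peak at both stages. The RefSeq promoter table for GRCm38.p6, the assembly of mm10, held 51 windows of 300 bases (250 before and 50 after a start) for 34 of the 35 genes, and Gpd1 had no entry. A peak lay over 33 of the 51 windows (64.7%) in all 24 libraries, against 41.5% of 21263 protein-coding windows, and 26 of the 34 genes had such a window. In 3 windows no library had a peak. The number of calls could have reached significance in 6 of the 51 windows, and of these 4 had more adult calls and 0 more E18.5 calls (Fisher's exact test, two-sided, 12 against 12 libraries, adjusted over all windows). Over all 6118 testable windows, the shares were 3.92% and 24.8%. Each stage's 12 libraries share 3 animals or 3 litters, which makes these window p-values too small. These tests of windows were chosen after some merged regions were seen to join several starts.

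The 4 windows belonged to Ppp1r3a, Aldoa, Pfkm and Fbp2. Ppp1r3a encodes the muscle subunit that targets a protein phosphatase to glycogen, and its window had a peak in 11 of 12 adult libraries and in 0 of 12 embryonic ones (adjusted Fisher's exact p = 0.000512). Aldoa encodes the aldolase of muscle, and the most upstream of its 3 windows was also called in 11 adult and 0 E18.5 libraries (adjusted Fisher's exact p = 0.000512), while its other 2 windows were called in all 24. Pfkm encodes muscle phosphofructokinase, and the most downstream of its 4 windows was called in 10 adult libraries and 1 at E18.5 (adjusted Fisher's exact p = 0.0068). Of the other 3 windows of Pfkm, 2 overlap and were called in all 24 libraries, and the most upstream was called in 0. Fbp2 encodes the fructose bisphosphatase of muscle, and its window had a peak in 10 adult and 3 E18.5 libraries (adjusted Fisher's exact p = 0.0479). The windows of Pgam2, the phosphoglycerate mutase of muscle (12 against 7, adjusted p = 0.0956), and Eno3, the enolase of muscle (9 against 4, adjusted p = 0.207), did not pass. All 4 libraries of adult 1 called each of the 4 windows that passed, and adults 2 and 3 called each in 3 or 4 of their 4 libraries. The missing adult calls were all in soleus: 2 of 3 soleus libraries called the Ppp1r3a and Aldoa windows and 1 of 3 the Pfkm and Fbp2 windows.

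The 250 bases before 6 of these starts are printed to set starts called mainly in the adult beside starts called in all 24 libraries. They are RefSeq sequences of GRCm38.p6, written 5′ to 3′ on the strand of the gene. Capitals mark exact matches, on either strand, to GGGCGG (the GC box), CCAAT (the CCAAT box), CAGCTG (the E box that muscle factors prefer), TATAAA (the TATA box) and a form of the MEF2 site, CTA and TAG with 4 free bases between them.
Ppp1r3a, chr6:14755275-14755524, minus strand, called in the adult only: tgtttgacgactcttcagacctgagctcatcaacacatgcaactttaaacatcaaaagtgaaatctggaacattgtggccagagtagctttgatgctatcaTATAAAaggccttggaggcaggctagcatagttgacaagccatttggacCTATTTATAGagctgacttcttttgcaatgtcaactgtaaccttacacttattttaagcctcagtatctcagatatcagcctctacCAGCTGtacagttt
Aldoa, chr7:126800448-126800697, minus strand, called in the adult only: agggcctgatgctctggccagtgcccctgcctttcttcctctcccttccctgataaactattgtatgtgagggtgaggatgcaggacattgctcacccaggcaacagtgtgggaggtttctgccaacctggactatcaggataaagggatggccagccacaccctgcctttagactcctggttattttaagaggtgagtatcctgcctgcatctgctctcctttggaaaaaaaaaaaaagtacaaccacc
Aldoa, chr7:126799179-126799428, minus strand, called in all 24: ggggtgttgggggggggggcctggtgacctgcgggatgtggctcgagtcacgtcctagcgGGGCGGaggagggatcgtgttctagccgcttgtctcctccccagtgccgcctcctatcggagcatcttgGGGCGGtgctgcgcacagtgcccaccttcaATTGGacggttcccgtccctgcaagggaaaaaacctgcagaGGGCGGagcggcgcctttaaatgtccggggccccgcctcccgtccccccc
Pfkm, chr15:98111810-98112059, plus strand, called in 10 adult libraries and 1 at E18.5: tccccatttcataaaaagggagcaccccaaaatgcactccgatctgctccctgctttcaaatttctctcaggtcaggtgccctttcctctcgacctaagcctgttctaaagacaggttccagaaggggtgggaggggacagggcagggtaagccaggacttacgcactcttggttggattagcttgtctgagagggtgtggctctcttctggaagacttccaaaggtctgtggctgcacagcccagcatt
Pfkm, chr15:98108221-98108470, plus strand, called in all 24: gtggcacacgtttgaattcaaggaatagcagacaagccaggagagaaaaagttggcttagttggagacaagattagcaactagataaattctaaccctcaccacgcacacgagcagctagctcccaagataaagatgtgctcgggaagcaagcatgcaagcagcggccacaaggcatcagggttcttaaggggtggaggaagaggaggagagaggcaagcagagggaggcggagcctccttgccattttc
Gys1, chr7:45434589-45434838, plus strand, called in all 24: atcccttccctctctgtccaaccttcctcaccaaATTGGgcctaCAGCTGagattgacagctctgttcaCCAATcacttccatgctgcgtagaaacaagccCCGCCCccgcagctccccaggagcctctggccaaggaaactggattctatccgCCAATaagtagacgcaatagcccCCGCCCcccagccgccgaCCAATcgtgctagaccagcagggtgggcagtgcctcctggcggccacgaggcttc

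The Ppp1r3a sequence held a TATAAA match whose leftmost base is at position -149 from the start, a MEF2 form at -100 that contains a reverse TATAAA match at -97, and a CAGCTG match at -14. The MEF2 form occurred in 3.69% and TATAAA in 13.6% of all 32851 promoter windows. The adult-only Aldoa window had 0 CpG dinucleotides in 300 bases, against 23 in the Aldoa window called in all 24, whose printed bases held 3 matches to GGGCGG. The Pfkm window called mainly in the adult had 4 CpG dinucleotides and the printed one called in all 24 had 9, and neither held any of the 5 motifs. Gys1 held 4 CCAAT, 2 GGGCGG and 1 CAGCTG matches in its printed bases. Across the 51 windows, GGGCGG occurred in 52.9% (46.2% of protein-coding windows), CAGCTG in 27.5% (15.6%), CCAAT in 39.2% (38.2%) and ACGTG, the core of the hypoxia response element, in 41.2% (20.9%). TATAAA was rarer than in protein-coding windows, at 3.92% (12.6%), and the MEF2 form occurred in 5.88% (3.47%). These matches describe letters in a window and carry no test.

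**Figure D1:**
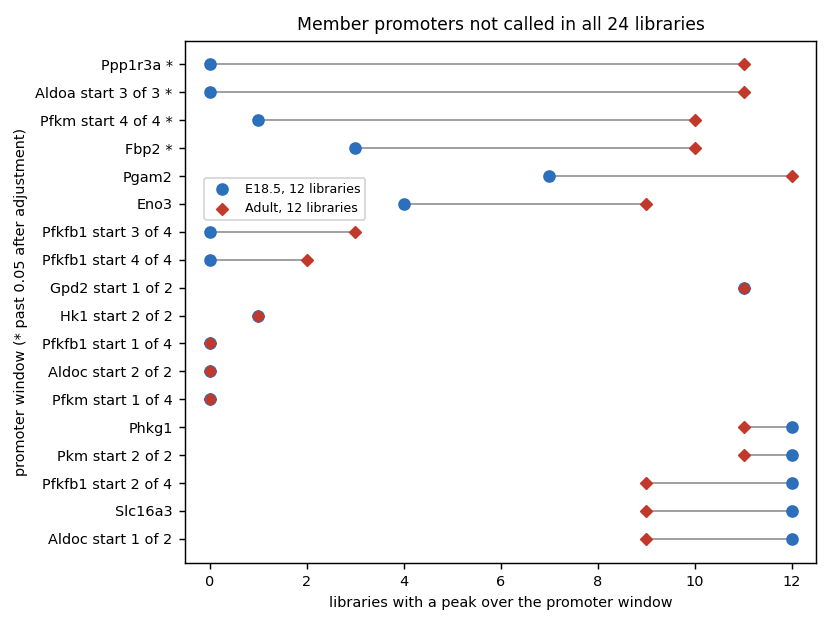
Libraries with a peak over each of the 18 promoter windows of the genes that were not called in all 24 libraries (x axis, of 12 per stage); diamonds are adult and circles E18.5. Ppp1r3a and the most upstream Aldoa start run from 0 at E18.5 to 11 in the adult, and no window passed the test in the other direction.

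Between the stages, more regions were called around these genes in the adult. The 12 adult libraries called 39.97% ± 4.38 (SD) of the 569 regions and the 12 E18.5 libraries 32.5% ± 4.74, although over all kept regions the order was the other way, at 27.7% ± 4.06 and 30.2% ± 5.55. The percent of a locus's regions called, centred on each library's mean over all tested loci and averaged over the 4 muscles of an animal or litter, was then compared between 3 adults and 3 litters with limma (Benjamini-Hochberg over all tested loci). Of the 35 loci, 10 were higher in the adult and 0 were higher at E18.5. Over all tested loci the shares were 3.04% and 3.37%. The median difference was 8.55 percentage points over the 35 loci, with 31 positive, against 0.18 over all loci. Among the 32 autosomal members, 8 were higher in the adult and the median difference was 8.42 points.

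**Figure D2:**
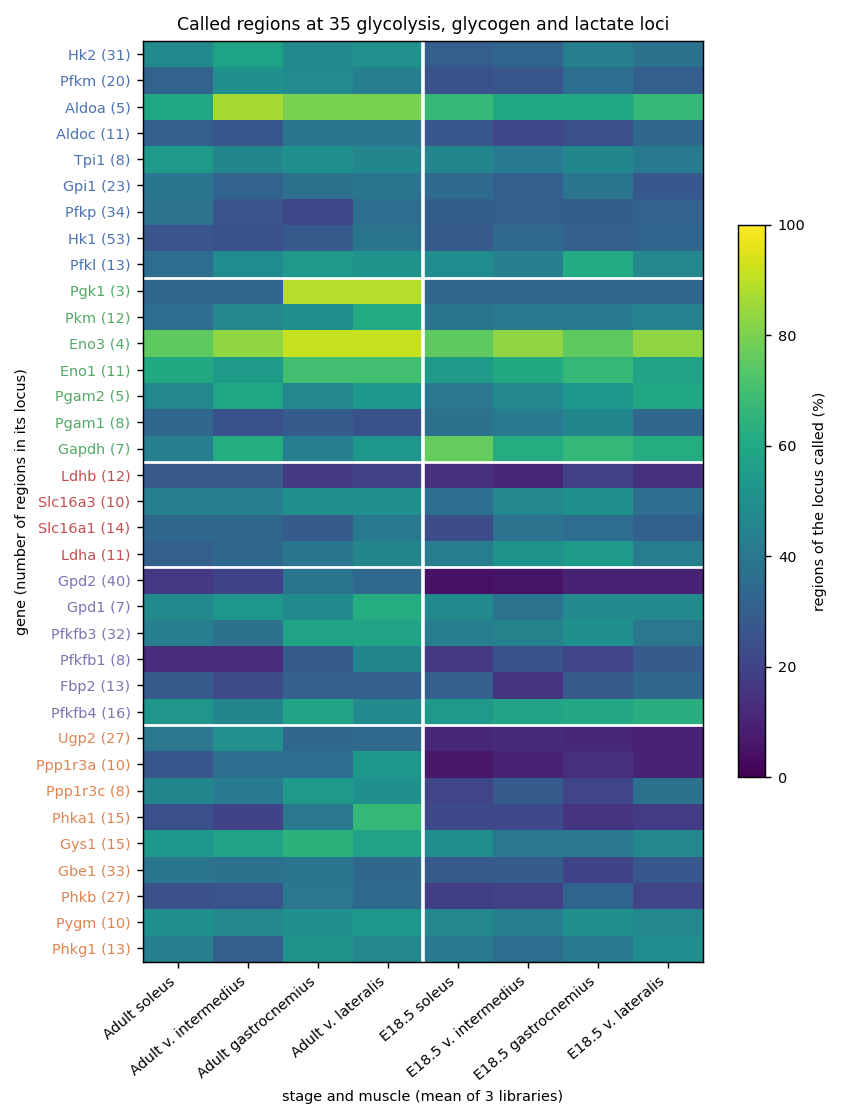
Percent of the regions of each locus called (colour), as the mean of 3 libraries, for 35 genes (rows, coloured by role, with the number of regions) in 4 adult and 4 E18.5 muscle groups (columns). Gpd2, Ugp2 and Ppp1r3a are dark in all E18.5 columns, and Pgk1 is bright in adult gastrocnemius and vastus lateralis alone.

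In hexose entry and upper glycolysis, 3 of 9 loci were higher in the adult and the median difference was 8.55 points. Hk2 encodes the hexokinase of insulin-responsive tissue. Its calls ran from 12 to 21 with a median of 15 of 31 regions in the adult and from 6 to 16 with a median of 11 at E18.5. Per animal that was 15.8 ± 1.56 against 11.1 ± 2.77 regions (SD, n = 3), a difference of 18.4 ± 4.28 points (SE, limma adjusted p = 0.0355). Pfkm calls ran from 5 to 11 of 20 regions (median 9) in the adult and from 2 to 9 (median 6) in the embryo, a difference of 17.1 ± 3.51 points (limma adjusted p = 0.0234). Aldoa calls ran from 3 to 5 of 5 regions in the adult (median 4) and from 3 to 4 at E18.5 (median 3), a difference of 16.7 ± 4.26 points (limma adjusted p = 0.0472). The Hk2 call held in 4 and the Pfkm call in 7 of 14 alternative settings, and the Aldoa call in 3 of 13. In all of these the ranges of single libraries overlapped between the stages. The locus differences of Hk1, Gpi1, Pfkl, Pfkp, Aldoc and Tpi1 lay between 0.78 and 10.9 points and did not pass.

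In lower glycolysis, 1 of 7 loci passed. Pgk1 encodes phosphoglycerate kinase, an enzyme that forms ATP. It had only 3 regions: every E18.5 library called 1 of them, and adult libraries called 1 to 3, a difference of 31.1 ± 5.75 points (limma adjusted p = 0.0164). Its adult calls differed between the muscles, as given with the fibre-bias comparison. Gapdh, the dehydrogenase of the same stretch of the pathway, had the largest difference toward E18.5, with 3.5 ± 0.433 of 7 regions in the adult against 4.67 ± 0.144 in the embryo (-13.3 ± 4.17 points), which did not pass (limma adjusted p = 0.0891). The differences of Pkm, Eno1, Eno3, Pgam1 and Pgam2 lay between -8.12 and 10.3 points and did not pass.

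None of the 4 lactate loci passed: Ldhb differed by 11.7 points, Slc16a3 by 7.51, Slc16a1 by 5.13 and Ldha by -7.27. Ldha encodes the dehydrogenase subunit that predominates in fast muscle, Ldhb the one that predominates in heart, and Slc16a1 and Slc16a3 encode lactate transporters. Their limma adjusted p-values lay between 0.177 and 0.566, and 0 of them passed in either direction.

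Among the control and glycerol phosphate genes, 1 of 6 loci passed. Gpd2 encodes the mitochondrial glycerol phosphate dehydrogenase, which feeds electrons from cytosolic NADH into the respiratory chain. Its calls ran from 5 to 16 (median 10.5) of 40 regions in the adult and from 1 to 6 (median 3) at E18.5. Per animal these were 10.9 ± 0.382 against 3.08 ± 0.289 regions (SD, n = 3), a difference of 22.9 ± 4.04 points (limma adjusted p = 0.0139). The differences of Gpd1, Fbp2, Pfkfb1, Pfkfb3 and Pfkfb4 lay between -4.47 and 10.5 points and did not pass. The Pfkfb enzymes make and remove the sugar bisphosphate that activates phosphofructokinase.

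Glycogen genes had the highest share, with 5 of 9 loci higher in the adult, all 9 differences positive and a median of 17.8 points. Ugp2 makes UDP-glucose, the donor from which glycogen is built. Its calls ran from 6 to 17 (median 11) of 27 regions in the adult and from 2 to 4 (median 3) at E18.5. It was the only member whose single libraries did not overlap between the stages, which held for 0.0672% of all tested loci in this direction and 0.0605% in the other. The difference was 31.7 ± 5.84 points, from 10.7 ± 3.17 against 3 ± 0.5 regions (SD, n = 3, limma adjusted p = 0.0161). The adult spread came from animal 1, which called 11 to 17 regions against 6 to 12 in the other 2, and without animal 1 the difference was 24.7 points (limma adjusted p = 0.0449).

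Ppp1r3a and Ppp1r3c encode subunits that target a phosphatase to glycogen. Ppp1r3a had 3.83 ± 0.382 of 10 regions called in the adult against 1 ± 0.433 in the embryo, with adult libraries from 1 to 8 and E18.5 libraries from 0 to 2. Its difference of 31.7 ± 3.69 points had the lowest adjusted p of the members (limma, 0.00374) and passed under all 14 alternatives. Ppp1r3c had 3.83 ± 1.01 of 8 regions in the adult against 2.17 ± 0.382 in the embryo, which differ by 24.2 ± 5.04 points (limma adjusted p = 0.0246). Phka1 encodes a regulatory subunit of phosphorylase kinase in muscle. Of its 15 regions, 5.67 ± 0.520 were called in the adult against 2.92 ± 0.144 in the embryo (21.7 ± 3.75 points, limma adjusted p = 0.0131). Single adult libraries called 2 to 12 Phka1 regions and single embryonic libraries 1 to 5. Before centring, slow-biased libraries called a mean of 3.33 at each stage, and fast-biased libraries 8 in adults against 2.5 in embryos. Adult Phka1 calls per muscle are given with the fibre-bias comparison. Gys1, the glycogen synthase of muscle, had 8.75 regions called in each adult on average (SD 0, n = 3) of 15, against 6.58 ± 0.804 at E18.5 (17.8 ± 4.12 points, limma adjusted p = 0.0348), a call that held in 5 of 14 alternatives. Gbe1, the branching enzyme (13.9 points, limma adjusted p = 0.0533), and Phkb, another kinase subunit (11.7 points, 0.087), did not pass. Phkg1, the catalytic subunit in muscle, and Pygm, the phosphorylase of muscle, differed by 4.62 and 6.67 points.

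The number of loci that passed was lower whenever 1 animal or litter was left out, which also left fewer units in the fit. It was 3 without adult 1 (Ugp2, Ppp1r3a and Ppp1r3c), 7 without adult 2 and 4 without adult 3. It was 6 without litter 1, 2 without litter 2 (Gpd2 and Ppp1r3a) and 6 without litter 3. Of the other loci that passed, Gpd2 and Ugp2 did so in 12 of 14 alternatives, Ppp1r3c in 9 and Phka1 in 8 of 14, and Pgk1 in 8 of 13. With no centring 5 passed and the median difference was 5.21 points, and with all lists thinned to the shortest 4 passed.

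**Figure D3:**
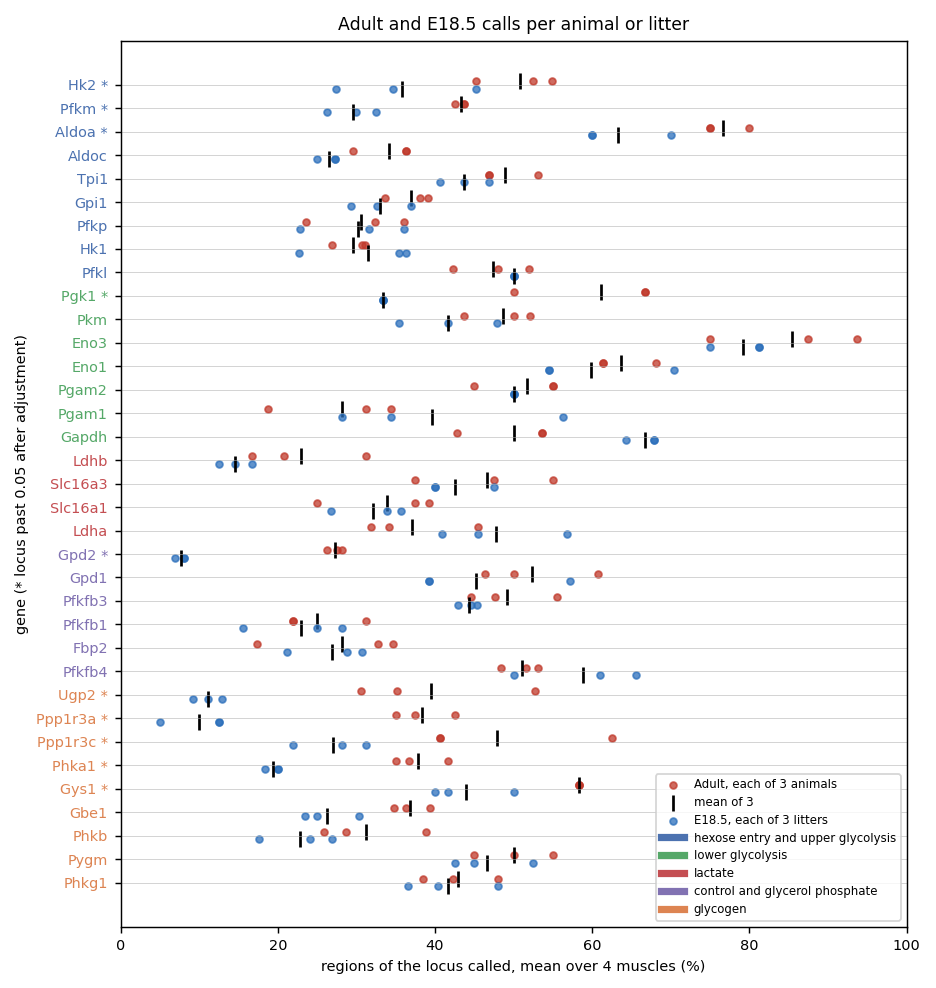
Percent of each locus's regions called (x axis), averaged over the 4 muscles, for each of 3 adult animals (red, upper row of a gene) and 3 litters (blue, lower row), with black bars for the means and asterisks for the 10 loci that passed. At every locus with an asterisk except Hk2, the adult animals lie to the right of all litters. The same holds at some loci that did not pass, such as Gbe1 and Aldoc.

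Single regions were then compared by the number of libraries that called them (Fisher's exact test, two-sided, 12 against 12, adjusted over the 170267 regions that could pass). As with the windows, these p-values are too small. Of 231 testable regions at the 35 loci, 22 had more adult calls (9.52%) and 4 more E18.5 calls (1.73%), all of them autosomal. The background was the other way, with shares of 1.55% and 4.55% over all testable regions. Without adult 1, 16 and 3 of the regions passed. The 22 regions lay at 14 genes, 18 of them in a gene body and 2 over a promoter window of the same gene.

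Glycogen loci held 12 of the 22, out of 66 testable regions. A region in the body of Ugp2 (chr11:21350634-21352181) was called in 12 adult libraries and 1 at E18.5 (adjusted Fisher's exact p = 0.00113). A pair in the body of Gys1 (chr7:45437199-45438329 and chr7:45443329-45444860) had the same calls, and another Gys1 region, at -7924 bp from the start and inside the neighbouring gene Ruvbl2 (chr7:45426542-45427290), was called in 9 and 0. The promoter of Gys1 itself, printed above, was called in all 24 libraries. At Ppp1r3a the region over the promoter (chr6:14754586-14755833) had a peak in 11 adult libraries and in 0 of E18.5. Ppp1r3c had 2 regions in its body (chr19:36733886-36734853, 11 and 0; chr19:36730335-36732117, 12 and 2). Gbe1 had 2, at 220982 bp (chr16:70534284-70535579, 11 and 0) and 38603 bp after its start (chr16:70351549-70353556, 12 and 3). Phkb had 2, at 194178 bp (chr8:86034252-86036082, 11 and 0) and 20944 bp after it (chr8:85860460-85863404, 10 and 1), and Phkg1 had 1 (chr5:129871090-129872351, 10 and 1). The upstream Gys1 region, the second Gbe1 and Phkb regions and the Phkg1 region each kept their call in 5 of 10 refits.

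Upper glycolysis held 4 of the 22, out of 88 testable. The Hk2 region lay 13537 bp inside the gene (chr6:82760595-82761240) and was called in 11 adult and 0 E18.5 libraries (adjusted Fisher's exact p = 0.00113). Pfkm had the region over its most downstream start (chr15:98111610-98112289, 10 and 1) and another 7601 bp after that start (chr15:98119337-98119986, 9 and 0). Aldoa had a region at -2134 bp from its nearest start (chr7:126802158-126803006, 9 and 0). Gpd2 held 3 regions, of which the strongest was in the gene body (chr2:57269498-57271783, 10 and 0, adjusted Fisher's exact p = 0.00415), and the others were called in 8 and 0 (chr2:57229306-57230605) and in 11 and 3 (chr2:57300665-57302578). These calls of the other 2 Gpd2 regions held in only 3 and 4 of 10 refits. Pfkfb3 held 1 (chr2:11525838-11527093, 9 and 1), which lies in the annotated gene Gm10851 as well and kept its call in 4 of 10 refits, Slc16a3 held 1 (chr11:120951498-120952688, 9 and 0) and Eno1, the broadly expressed enolase, held 1 in its upstream flank (chr4:150229985-150231413, 12 and 3).

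The 4 regions called more often at E18.5 all lay outside the gene bodies. The region assigned to Gapdh (chr6:125156760-125157508) was called in 0 adult and 12 E18.5 libraries (adjusted Fisher's exact p = 0.000312), and it lies inside the neighbouring gene Iffo1. Regions in the flanks of Slc16a1 (chr3:104666780-104667772, 2 and 12), Pfkfb3 (chr2:11464048-11465624, 3 and 12) and Pfkfb4 (chr9:108977663-108979463, 3 and 12) were called in all E18.5 libraries, and the last lies inside Col7a1, a collagen gene. The Pfkfb3 and Pfkfb4 regions each kept their call in 5 of 10 refits. Of the regions in a gene body, 18 thus had more adult and 0 more E18.5 calls in these same tests.

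The 22 adult-higher regions were not called equally in the 4 adult muscles. Gastrocnemius and vastus lateralis libraries called 21 to 22 of the 22, vastus intermedius 19 to 21 and soleus 12 to 15, while E18.5 libraries called 0 to 3. In soleus, 10 of the 22 were called in fewer than 2 of 3 libraries, against 1 in vastus intermedius and 0 in both fast-biased muscles. The 10 include the Aldoa region, both Pfkm regions, the upstream Gys1 region and 2 of the 3 Gpd2 regions. Over all 2631 adult-higher regions of the genome, soleus libraries called 63.5 to 83.2%, vastus intermedius 88.7 to 91.6%, gastrocnemius 89.1 to 95.2% and vastus lateralis 88.4 to 94.1%. The lower calls in soleus were thus also seen over all such regions, and the members' values in soleus were 54.5 to 68.2%. These values describe regions chosen on the adult calls and have no test.

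**Figure D4:**
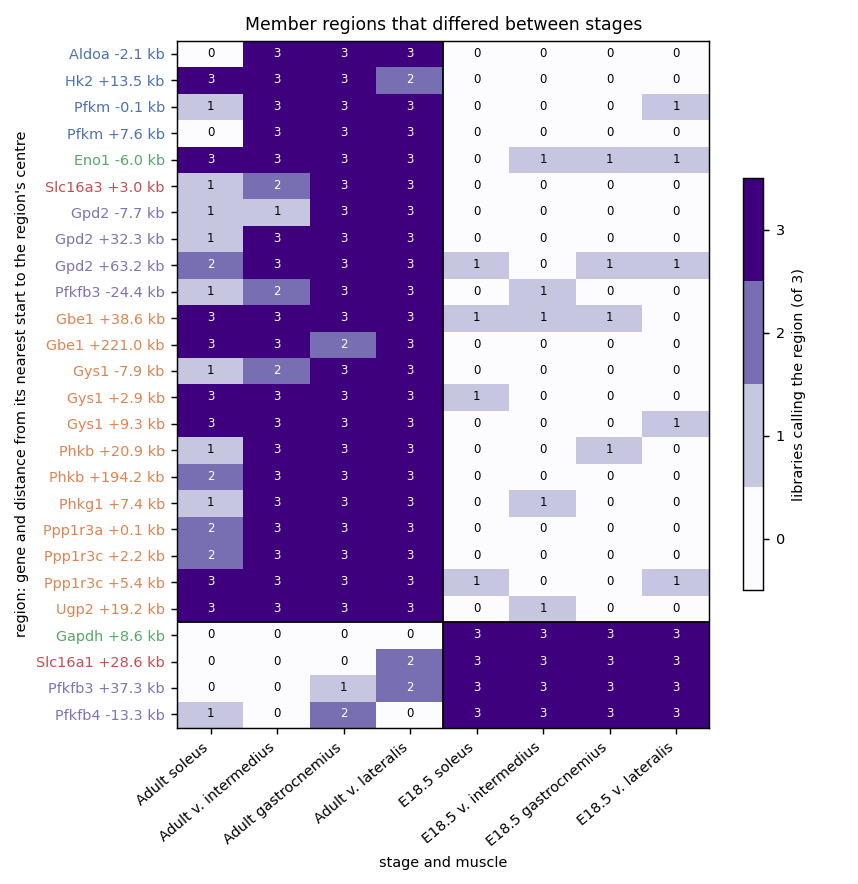
Number of libraries (0 to 3, colour and digit) calling each of the 26 regions that differed between the stages (rows, with the distance in kb from the nearest start of the gene) in 8 groups (columns). In the upper 22 rows all adult columns hold 2 or 3, except for 10 rows with 0 or 1 in soleus and 1 row with 1 in vastus intermedius, and the lower 4 rows hold 3 in all E18.5 columns.

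Most markers of muscle fibres moved the same way. Of 12 loci, 10 had positive and 2 negative differences (median 12.5 points), and 6 were higher in the adult by limma. At 12 muscle fibre genes such as Acta1, Ckm and Ttn, 52 of 197 testable regions had more adult and 4 more E18.5 calls, and the calls summed over the 12 genes ran from 122 to 202 in adult and from 50 to 96 in E18.5 libraries, with 0 of the 12 uncalled. At 6 fibroblast genes, 0 and 6 of 47 were, with summed calls of 17 to 35 and 26 to 49. At 4 muscle progenitor genes 0 and 2 of 36 were, with 22 to 35 and 25 to 38 summed calls, and at 7 immune genes 0 and 0 of 32, with 9 to 27 and 14 to 37. Adipocyte genes had a locus difference of the members' size by stage: all 4 were positive with a median of 7.99 points, and Fabp4, a fatty acid carrier, was higher in the adult (25.2 points, limma adjusted p = 0.0359). By region 1 and 1 of 23 at adipocyte genes differed, with summed calls of 16 to 25 in adult and 14 to 23 in E18.5 libraries. Markers of endothelium (0 and 0 of 47 regions), smooth muscle and pericytes (1 and 0 of 53), Schwann cells and neurons (1 and 1 of 21), tendon (0 and 1 of 5), cartilage and bone (0 and 3 of 72) and erythroid cells (0 and 0 of 3) held 0 loci higher in the adult. Higher at E18.5 by limma were 2 of 6 fibroblast, 1 of 5 smooth muscle and pericyte, and 1 of 5 cartilage and bone loci. No locus of the other marker lists was higher at E18.5. The part of fibre or fat content in the results above was not tested.

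Between slow-biased and fast-biased muscles of the adult, few of the loci differed. The loci were compared over 6 slow-biased and 6 fast-biased libraries, which came from 3 animals (limma, adjusted over all tested loci). Pgk1 was higher in fast-biased libraries and was the only member to pass, and 0 members were higher in slow-biased libraries. Over all tested loci 0.00336% passed in each direction, and toward fast-biased libraries this was Pgk1 alone. At an unadjusted p under 0.05 there were 5 members toward fast and 2 toward slow, where the shares over all loci were 3.8% and 3.53%. Among autosomal members these counts were 2 and 2. The median difference of the 35 was -2.41 points (slow minus fast), against 0.09 over all loci, and it was 0.07 without adult 3. Among the autosomal members 0 passed and the median was -1.09 points.

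At Pgk1 every soleus and vastus intermedius library called 1 of the 3 regions, the one over the promoter. Gastrocnemius libraries of adults 1, 2 and 3 called 3, 2 and 3, and vastus lateralis libraries 3, 2 and 3. The groups did not overlap, which held for 0.471% of all tested loci in this direction and 0.00336% in the other. The difference was -51.3 ± 7.21 points (limma adjusted p = 0.041). The call was lost without adult 1 (limma adjusted p = 0.624) and without adult 3 (0.544). An exact permutation of the libraries could not decide, because no locus could pass in it. Pgk1 had the smallest p that this permutation can give for 6 against 6 libraries (0.00216, adjusted 0.278). Of the 2 regions that differed, the one 8884 bp after the start (chrX:106195543-106196425; exons and introns were not told apart) had a peak in 6 of 6 fast-biased, 0 of 6 slow-biased and 0 of 12 E18.5 libraries. The other, at 7439 bp after the start (chrX:106194156-106194923), was called in 4 fast-biased libraries, those of adults 1 and 3. In adult 1 the percent of X-linked regions called was 1.07 to 1.22 times the autosomal percent, and with X-linked loci centred on the X chromosome the difference was -52.6 points (limma adjusted p = 0.0306).

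Gpd2 also separated the adult muscles. Soleus libraries of adults 1, 2 and 3 called 5, 8 and 7 regions and vastus intermedius 9, 7 and 8, while gastrocnemius called 16, 16 and 14 and vastus lateralis 12, 14 and 15. No slow-biased library reached the lowest fast-biased one, which held for 0.471% of all tested loci in this direction and 0.00336% in the other. These counts were not centred on list length, and adult fast-biased lists were longer on average. The means were 7.33 ± 1.37 and 14.5 ± 1.52 of 40 regions (SD, n = 6), and the difference of -13.7 ± 4.00 points did not pass over all loci (limma adjusted p = 0.474). Within each of the 3 animals both fast-biased muscles had more called regions than both slow-biased ones.

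The other members with large differences overlapped between the muscles and did not pass. Phka1 calls were 2 to 4 of 15 in slow-biased and 4 to 12 in fast-biased libraries (-26.9 points, limma adjusted p = 0.474), and the high values were those of vastus lateralis (9, 9 and 12) and of the gastrocnemius of adult 1 (10). Pfkfb1, whose isoform is known from liver and muscle, had 0 to 2 of 8 in slow-biased and 2 to 4 in fast-biased libraries (-20.7 points, limma adjusted p = 0.392). Pfkfb3 had 10 to 17 against 16 to 23 of 32 (-13.97 points, limma adjusted p = 0.61). In the other direction, Ugp2 had 6 to 17 in slow-biased and 7 to 14 in fast-biased libraries (15.4 points, limma adjusted p = 0.666), and Ldhb had 2 to 5 against 1 to 3 of 12 (13.98 points, limma adjusted p = 0.633).

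Among single regions, 0 of 80 testable member regions passed in the adult (Fisher's exact test, 6 against 6, lowest adjusted p = 0.445, which was also the lowest over all regions). The smallest p that Fisher's exact test can give for 6 against 6 libraries is 0.00216, and regions with it had the adjusted p of 0.445. No single region could therefore pass. At an unadjusted p under 0.05 there were 6 toward fast-biased and 0 toward slow-biased muscles. Over all testable regions 2.88% and 0.472% were, so the background leaned toward fast-biased muscles as well. A pair of regions was called in 6 of 6 fast-biased and 0 of 6 slow-biased libraries, the Pgk1 region above and a region in the body of Pfkfb3 (chr2:11476773-11479105), which 4 of 12 E18.5 libraries called. This held for 0.449% of all testable regions, and the reverse pattern for 0.0374% of them and for 0 of the members. In Gpd2, regions at chr2:57252662-57253958 (6 fast-biased and 1 slow-biased) and chr2:57256448-57256883 (5 and 0) came next, with the same p-value (Fisher's exact test, unadjusted, 0.0152) as a flank region of Phka1 (chrX:102509088-102510692, 5 and 0) and a region in the body of Phkb (chr8:85871502-85873211, 5 and 0). The counts without each adult were 3, 5 and 7 toward fast-biased.

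**Figure D5:**
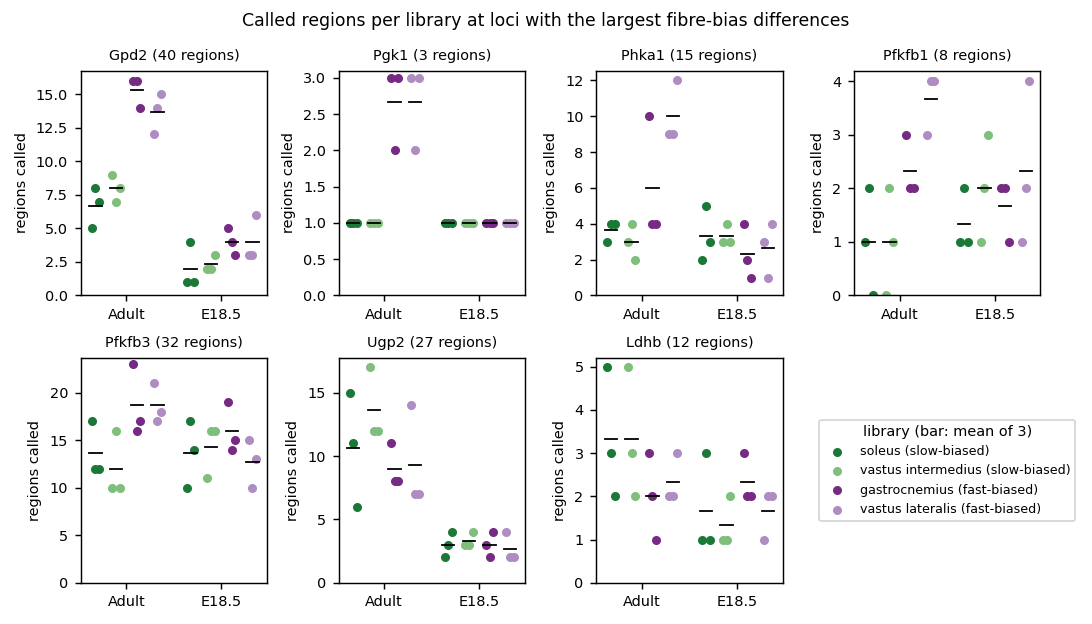
Called regions per library (y axis, points) and the mean of 3 (bars) at the 7 loci with the largest differences between slow-biased (green) and fast-biased (purple) muscles, in adult and E18.5 muscle. In the adult, Gpd2 and Pgk1 show no overlap between green and purple points, and at E18.5 all 7 loci overlap.

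At E18.5 no member locus differed between slow-biased and fast-biased muscles. In limma 0 of 35 loci passed in either direction and 0 had an unadjusted p under 0.05, and over all loci 0.0% passed and 2.61% toward fast-biased and 2.28% toward slow-biased muscle were under the unadjusted threshold. The median difference was -1.61 points, against 0.03 over all loci. By Fisher's exact test 0 of 57 testable regions passed, and here too no single region could have passed. There were 2 with an unadjusted p under 0.05, both toward fast-biased muscle: 1 at Hk2 (chr6:82733168-82735473, 5 fast-biased and 0 slow-biased) and 1 at Pfkfb3 (chr2:11482987-11485670, 5 and 0). Over all testable regions 0.591% were toward fast-biased and 0.234% toward slow-biased muscle at that threshold. No member region was called in all libraries of a side and none of the other, against 0.0441% of testable regions toward fast-biased and 0.00802% toward slow-biased muscle. The next differences went both ways, also within 1 gene: Pgam1 had a flank region with 4 slow-biased and 0 fast-biased calls (chr19:41900511-41902019) and a region in its body with 0 and 4 (chr19:41916637-41917059). Hk1 had a region with 0 and 4 as well (chr10:62315559-62316895).

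The slow minus fast difference itself was compared between adult and E18.5 (interaction in limma, 24 libraries). Pgk1 was the only member to pass, with -51.3 points in the adult and 1.17 in the embryo, a difference of -52.5 ± 8.42 points (limma adjusted p = 0.0373). Every E18.5 library called 1 of the 3 Pgk1 regions, so the 1.17 points came from the centring alone. Of all tested loci 0.00336% passed in this direction, which was Pgk1 alone. It did not pass without adult 1 (0.377), without adult 3 (0.417) or without any of the litters (0.323 to 0.602), and it passed without adult 2. For Gpd2 the interaction was -10.2 ± 5.50 points and for Phka1 -33.6 ± 9.18 points, and neither passed (limma adjusted p = 0.904 and 0.555).

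Other genes of the pathway were listed beside the members: 47 genes of glucose uptake, further isoforms, pyruvate and glycogen metabolism, of which 45 were tested. Of these, 6 loci were higher in the adult and 3 in the embryo, with a median of 2.41 points. Pdk4, a kinase that restrains pyruvate dehydrogenase, had 3 to 8 of 9 regions called per adult library and 1 to 4 per E18.5 library (40.4 points, limma adjusted p = 0.00423). Gyg, which primes glycogen, differed by 27.7 points (adjusted p = 0.00709) and Slc2a4, the insulin-responsive glucose transporter, by 26.0 points (adjusted p = 0.01), both higher in the adult by limma. Phka2, the kinase subunit known from liver, was higher at E18.5 (-28.1 points, limma adjusted p = 0.0258), the reverse of its paralogue Phka1. The other loci higher at E18.5 in limma were Pgm2l1 and Ldhd. By region, 17 of 293 testable had more adult and 11 more E18.5 calls.

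Of 19 regulators of muscle metabolism, 5 loci were higher in the adult and 1 in the embryo. Prkaa2, a catalytic subunit of the energy sensor AMPK, differed by 29.2 points (limma adjusted p = 0.00417) and Prkag3, an AMPK subunit of glycolytic muscle, by 20.01 points (0.0242). Mef2c, a muscle transcription factor, differed by 25.2 points (limma adjusted p = 0.0196) and Eya1, which is known as a regulator of fast fibres, by 23.9 points (0.00705). The other locus higher in the adult was Six4 (17.2 points, limma adjusted p = 0.0358), a homeobox factor. The 1 locus higher at E18.5 was Myc (-16.9 points, limma adjusted p = 0.0379). By region, 11 of 177 testable had more adult and 7 more E18.5 calls. No locus of either list passed between slow-biased and fast-biased muscles at either stage.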

How the data were processed

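Each of the 24 libraries was deposited as a peak list of chromosome, start and end on mm10; the authors gave no other value per peak, so the positions were used as yes or no calls. The submitters' processing notes name MACS2 2.1.1, Bowtie2 2.4.4 and bedtools 2.25.0 among the tools. Not given in the sources used here were the thresholds, any Tn5 shift and the read numbers; list length was the only measure of depth. Lists were per library, and 0 pairs were identical.

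Peaks on 21 chromosomes were merged where they overlapped or touched (930761 regions), and the 459616 regions with a call in 2 or more libraries were kept; 1 bp of overlap made a call. Loci came from RefSeq (GRCm38.p6). Regions were tested with Fisher's exact test (SciPy 1.17.1) and loci with limma 3.58.1 in R 4.3.3, trend on, both with Benjamini-Hochberg adjustment at 0.05; both were tested on simulated data. The 4 muscles of a replicate share an animal or litter per the labels. Deviations of libraries of the same animal or litter correlated at 0.0205 (adult) and 0.104 (E18.5) on average, and at -0.0102 and -0.0518 between animals or litters. The deviations were taken from each group's own mean, which ties the values between animals or litters to those within them. They are therefore no separate comparison. The members, lists and tests were chosen with earlier results of these data known. Members with a region or locus past 0.05, and the 6 with the largest difference in the stage and adult fibre-bias comparisons, were named with values; of the other pathway genes and of the regulators, up to 4 with the largest difference were, and Six4, Myc, Pgm2l1 and Ldhd were named after their values were seen. Some loci that passed are not reported here by name.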

Additional observations from a re-analysis of the deposited data

Results flagged for a closer look

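Pgk1 was flagged because its slow minus fast difference itself differed between the stages by -52.4677 percentage points (interaction in limma, adjusted p = 0.0373); in fast-biased muscles 6 of 6 adult libraries exceeded all 6 slow-biased ones, and at E18.5 all 12 libraries called 1 region. Pfkfb1 was flagged for a library far from the others: vastus lateralis of litter 3 called 4 regions, against 1 to 2 in the other 5 fast-biased libraries at E18.5. Sets of 6 libraries were screened in this way 32 times. By chance the cutoff flags about 1 in 20 sets of continuous, normally distributed values. That rate need not hold here, as most sets were small counts with ties.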

How the results depend on the processing

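With animal or litter as a replicate block, Pgk1 was still the 1 member locus to pass in the adult (limma adjusted p = 0.0122), the interaction of Pgk1 still passed (0.00274), and the block changed no other call of a member. Member regions with more adult calls (22) and with more E18.5 calls (4) were 8 and 1 with lists thinned to the shortest. With the first 57666 peaks of each list they were 41 and 10. That setting was added after seeing the data, and the order of the lists is not explained. With promoter windows in place of regions the counts were 4 and 0. Gene bodies alone held 18 and 0, which is a part of the same tests and not a refit. Without 1 animal or litter the counts were 13 to 21 and 2 to 5. Regions called in all fast-biased and 0 slow-biased adult libraries (2) were 1 when a call had to cover 50% of a region, 0 when thinned, 1 with the first peaks and 1 among autosomal members; without 1 adult they were 3 to 7, and those in all slow-biased and 0 fast-biased ones (0) were 0 to 1, while at E18.5 the fast-biased count (0) was 0 to 1.

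Loci higher in the adult (10) were 5 with no centring, 5 when a call had to cover 50%, 4 when thinned, 18 with the first peaks, 6 with gene bodies alone and 2 to 7 without 1 animal or litter. Those higher at E18.5 (0) were 1, Gapdh, with regions called in 6 or more libraries and 1 with the first peaks. Their median difference (8.55 points) was 5.21 with no centring, 15.8 with regions called in 6 or more libraries, 18.8 with the first peaks, 12.54 with gene bodies alone and 6.92 to 10.3 without 1 animal or litter. The 1 locus higher in fast-biased adult libraries became 0 with loci of 1 or more regions in the test. The count was also 0 with regions called in 6 or more libraries, with 50% cover and when thinned. Among autosomal members and without adult 1 or 3 it was 0 as well (range 0 to 1). Exact permutation gave 0 too, but no locus could pass in it. The 1 interaction became 0 with regions called in 6 or more libraries, with 50% cover, when thinned, with the first peaks, among autosomal members, and in 5 of the 6 fits without an animal or litter (range 0 to 1). The median difference between slow-biased and fast-biased adult libraries (-2.41) was -6.67 with no centring, -8.36 with the first peaks and -4.09 to 0.07 without 1 adult, and the median interaction (-1.08) was -8.48 with the first peaks and -1.88 to 1.89 without 1 animal or litter. The cause of these shifts was not tested.

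Some locus differences between the stages that did not pass turned direction: Eno1 (-2.26 with 50% cover), Slc16a1 (-3.14 with regions called in 6 or more libraries, -16.9 with the first peaks), Slc16a3 (-1.26 when thinned) and Pfkfb4 (8.25 with 50% cover, 5.63 with the first peaks, 5.23 with gene bodies alone). No named region turned direction in 260 refits, of which 184 kept the call, from 3 of 10 (a Gpd2 region) to 10 of 10 (Ugp2, Ppp1r3a, Slc16a1 and a Phkb region).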
